A study of Mus musculus with 8 samples.

Results

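The ATF4 amino acid response genes and the cytosolic tRNA synthetases were examined in mRNA-seq data from liver cells of mice with and without endothelial LRP1. The study isolated them as endothelial cells (ECs), but the marker genes given below do not bear this out for the bulk of the RNA, so the samples are called by their genotype, WT and LRP1 eKO. The set was a list of 34 named genes: 8 regulators and outputs of the stress response, 7 enzymes of amino acid synthesis, 7 amino acid transporters and 12 tRNA synthetases. Of these, 33 were found by gene symbol among the 22520 genes of the expression table, and Slc7a5 was not analysed here. All 33 passed the filter on low values, as did 11391 genes in all.

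ATF4 is a transcription factor whose protein is made mainly when the initiation factor eIF2 is phosphorylated, as happens when amino acids run short or the endoplasmic reticulum is under stress. It then switches on genes that make amino acids, import them and charge them onto tRNA, together with regulators such as CHOP and TRIB3. Because this control lies largely in translation, the Atf4 mRNA is known to be an incomplete measure of the activity of the protein.

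The WT group held 4 libraries from LRP1 f/f; Cdh5-CreER-/- mice, and the LRP1 eKO group held 4 libraries from LRP1 f/f; Cdh5-CreER+/- littermates, so both groups carried the floxed Lrp1 alleles and differed in the Cre transgene. Effects of Cre itself therefore cannot be told apart from those of Lrp1 loss. The study describes the knockout as inducible, and its induction is not reported here. The mice were C57BL/6 at postnatal day 14. Cre was driven by the promoter of Cdh5, the VE-cadherin gene of endothelium, and the cells were collected with an antibody to PECAM-1, another endothelial surface protein. The samples were labelled as microvesicular cells of the liver. The labels do not say that each library came from a separate mouse, so the p-values below measure only the spread between these libraries, which may be technical.

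Lrp1 served as the check on the genotype labels. Its signal, a quantile-normalized expression value, was 61.6, 59.0, 56.2 and 85.1 in WT replicates 1 to 4 and 6.01, 2.16, 5.15 and 4.32 in LRP1 eKO replicates 1 to 4. The groups did not overlap, and the log2 fold change was -3.66 ± 0.226 (SE, adjusted p = 2.8e-06).

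Total signal was fixed by the normalization at 484445 to 485947 per library, so the read depth is unknown. Across all genes tested, WT replicate 4 was the WT library farthest from its group median for 61.7% of genes and LRP1 eKO replicate 2 the farthest of its group for 37.2%. The 11 endothelial markers summed to a signal of 22.4 to 30.1 in WT and 35.2 to 60.4 in LRP1 eKO libraries, with Pecam1 at 1.53 to 2.50 and 1.84 to 3.85, and Cdh5 at 1.26 to 2.27 and 2.21 to 4.99. Of these 11 markers 8 passed the filter and 3 were called higher, while Tek, Stab2 and Clec4g stayed under the filter. Calls were made at an adjusted p under 0.05 in limma. Over all genes tested, 19.0% were called higher and 22.2% lower. Every LRP1 eKO library thus had a higher endothelial sum than any WT library, and none of the 11 markers was at 0 in all libraries. Eng was the largest part of each sum, at most 13.8 in WT and at least 19.7 in LRP1 eKO libraries. In LRP1 eKO replicate 2, Eng, Kdr (5.23) and Oit3 (1.94) lay above every WT library. Tie1 (0.587), Lyve1 (0.925) and Stab2 (0.329) lay below every WT library, and the other markers within the WT range. For replicate 2 the higher sum therefore does not show a rise of the markers as a set. The 10 stellate cell and fibroblast markers summed to 2056 to 2260 in WT and 2188 to 2486 in LRP1 eKO libraries. Of the 8 tested, 2 were called higher and 2 lower (25.0% each), near the shares over all genes. The 12 macrophage and Kupffer cell markers summed to 113 to 222 in WT, and to 734, 52.8, 671 and 393 in LRP1 eKO replicates 1 to 4. Of the 9 tested, 1 (11.1%) was called higher, below the share over all genes. Replicate 2 lay below the WT range and the other LRP1 eKO libraries above it. The 5 bile duct markers summed to 301 to 356 in WT, and to 661, 233, 696 and 498 in LRP1 eKO replicates 1 to 4. Of the 3 tested, 0 were called higher and 1 (33.3%) lower. Spp1 (91.6 to 547) and Krt7 (107 to 148) were high members, but Epcam was at most 0.0523, so this sum does not single out bile duct cells. Erythroid, neutrophil and lymphocyte sums were at most 42.7, 3.59 and 0.191. The 10 hepatocyte markers summed to 43.8 to 64.0 and 15.6 to 20.3, with 3 of 3 tested called lower, and the 9 skeletal muscle markers to 47.2 to 73.5 and 14.5 to 16.0, with 6 of 6 called lower. Thus hepatocyte and skeletal muscle sums were lower in every LRP1 eKO library, whereas the stellate cell and fibroblast sums overlapped between the genotypes and the macrophage sums fell on both sides of the WT range. The part of these cell types in the results was not tested. In bulk samples fewer cells of a type and less RNA per cell cannot be told apart. In all 8 libraries the endothelial sum was at most 60.4 and the stellate cell and fibroblast sum at least 2056. High members of the latter list were Acta2 (756 to 1099), Dcn (441 to 581) and Col1a1 (326 to 499.97). Other members of it were low, with Lrat at 0.0167 to 0.201, Reln at 0.307 to 0.625 and Hgf at 0.689 to 2.14. The sum therefore does not single out stellate cells. The values below therefore describe the collected cells as a whole and cannot be assigned to ECs. In the same libraries the mean Lrp1 signal was 65.5 in WT and 4.41 in LRP1 eKO. Which cell types carried Lrp1 or its deletion was not tested. The sources used here do not say whether the values were divided by gene length, so no finer comparison of levels between genes was made.

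**Figure D1:**
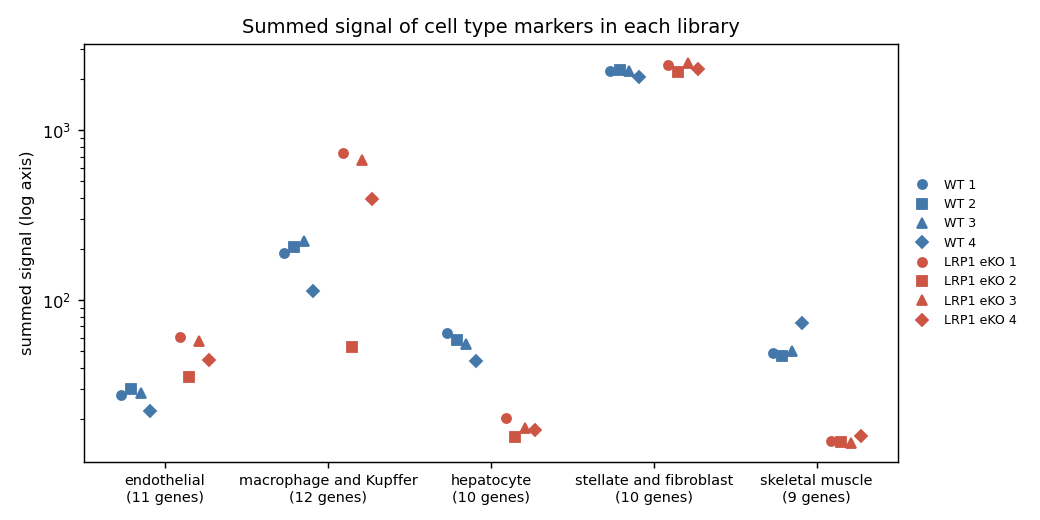
Summed quantile-normalized signal (log axis) of 5 cell type marker lists in each library, with WT in blue, LRP1 eKO in red and the replicate given by the symbol. Hepatocyte and skeletal muscle sums were lower in all 4 LRP1 eKO libraries than in any WT library, and LRP1 eKO replicate 2, at 52.8, lay below the other 7 libraries for macrophage markers.

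At an adjusted p under 0.05 in limma, 17 of the 33 genes were higher and 3 were lower in LRP1 eKO than in WT libraries, and 13 were not called. For comparison, 19.0% of all genes tested were called higher and 22.2% lower. The genes and lists were chosen with earlier results of these data known, so these shares describe a selected set. None of the 33 passed the adjusted p together with a 2-fold change, which 1.66% of all genes tested did. The 4 LRP1 eKO libraries lay wholly above or wholly below the 4 WT libraries for 19 of the 33 (57.6%), against 42.6% of all genes tested. The median log2 fold change of the 33 was 0.17, with a range of -0.54 to 0.94, and the median over all genes tested was -0.0095. The cytosolic synthetases held 9 of the 17 higher calls, and the stress regulators held the largest changes in both directions. Without WT replicate 4 and LRP1 eKO replicate 2, a choice made after the data were seen, 20 of the 33 were higher and 3 lower, and over all genes tested 20.5% were higher and 23.8% lower.

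**Figure D2:**
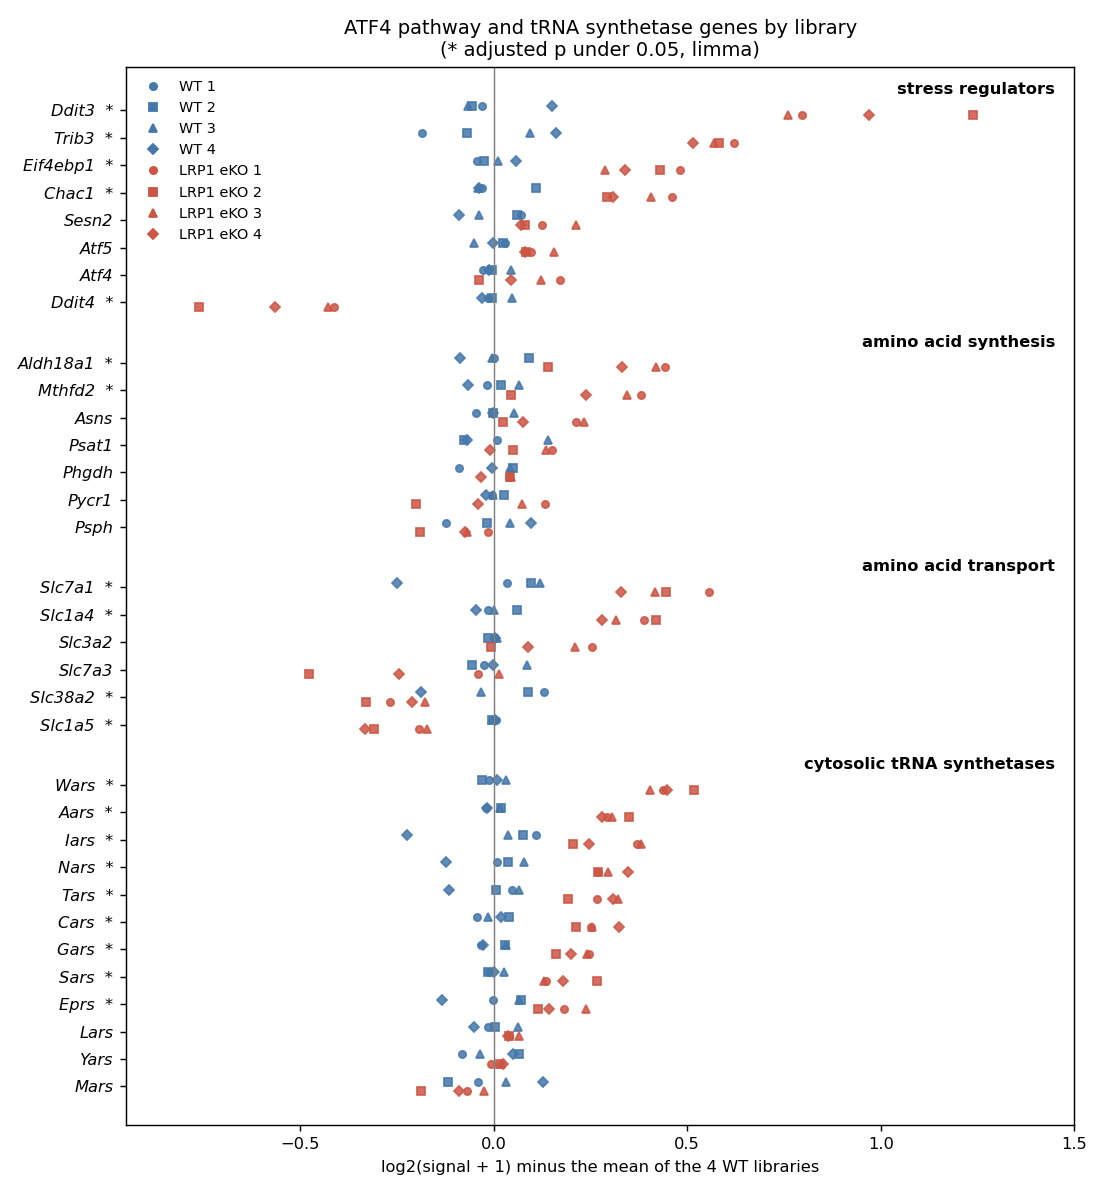
Each library's log2(signal + 1) minus the mean of the 4 WT libraries for the 33 genes, grouped by role, with WT in blue, LRP1 eKO in red and an asterisk for an adjusted p under 0.05. The red points of Ddit3 and Trib3 lie farthest to the right and those of Ddit4 farthest to the left, while Atf4, Psat1, Phgdh and Yars show mixed blue and red points.

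A part of the genes carry in their promoters the element read by ATF4 together with C/EBP proteins, TGATGNAA, where N is any base. RefSeq promoter windows of GRCm38.p6 (250 bases before to 50 bases after the annotated start) were found for 26 of the 33 genes. Searched on both strands, 10 of these 26 genes (38.5%) held the element in any of their 29 windows. Counted by window rather than by gene, 1304 of all 32851 windows (3.97%) held it. Since these genes were chosen as known ATF4 targets and partners, their share is no independent evidence. The element stood in 7 of 13 genes called higher, 0 of 2 called lower and 3 of 11 not called. The cAMP response element TGACGTCA stood in 0 of the 26 and in 1.79% of all windows, so the 2 motifs overlapped in none of these genes. The stretches are shown so that the elements of called and uncalled genes can be compared. Each is 30 bases on the gene's own strand, with the element in capitals, which is read on the opposite strand where it begins with TT. The first 7 come from genes called higher.
Trib3 (chr2:152344028-152344057, minus strand): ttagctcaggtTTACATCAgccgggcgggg
Chac1 (chr2:119351038-119351067, plus strand): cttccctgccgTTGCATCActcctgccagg
Slc1a4 (chr11:20332699-20332728, minus strand): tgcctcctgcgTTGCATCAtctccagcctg
Aars (chr8:111033840-111033869, plus strand): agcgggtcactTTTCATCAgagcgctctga
Gars (chr6:55037960-55037989, plus strand): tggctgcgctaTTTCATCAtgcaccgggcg
Iars (chr13:49682126-49682155, plus strand): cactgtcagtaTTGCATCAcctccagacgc
Tars (chr15:11399655-11399684, minus strand): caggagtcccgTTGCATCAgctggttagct
The other 3 come from genes that were not called.
Asns (chr6:7693214-7693243, minus strand): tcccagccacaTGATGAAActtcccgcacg
Pycr1 (chr11:120643833-120643862, minus strand): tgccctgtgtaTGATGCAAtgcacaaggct
Yars (chr4:129189895-129189924, plus strand): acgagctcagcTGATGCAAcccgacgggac
The elements shown from genes called higher were read on the opposite strand, and those in the 3 uncalled genes on the gene's strand. Each gene is shown with a single stretch, the genes are few, and whether strand goes with the call was not tested. Of the elements shown, the first base lay 4 bases before the annotated start in Slc1a4, 15 before in Tars, 23 before in Asns and 30 before in Gars. It lay 4, 8, 10 and 15 bases after the start in Yars, Iars, Aars and Trib3. The elements shown for Pycr1 and Chac1 began 103 and 193 bases before the start. A match describes these letters in this window and is not a measured binding site.

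Among the stress regulators, 4 of 8 were called higher and 1 lower, with a median log2 fold change of 0.24. Atf4 itself was not called: its signal was 154, 157, 162 and 156 in WT replicates 1 to 4 and 177, 153, 171 and 162 in LRP1 eKO replicates 1 to 4. The LRP1 eKO libraries spanned the WT range, with replicate 2 below it. The log2 fold change of Atf4 (chr15:80255184-80257541, GENCODE M21 on GRCm38) was 0.08, with a 95% interval of -0.04 to 0.19 and an adjusted p of 0.25, so a change of the mRNA beyond that interval was not seen and a smaller change could not be told from none. Atf5, a relative of ATF4 with the same kind of translational control, was 85.5 to 90.4 in WT and 93.8 to 98.8 in LRP1 eKO libraries. Its groups did not overlap, but its adjusted p was 0.055.

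Ddit3, the gene of the stress-induced transcription factor CHOP, showed the largest rise of the 33. Its signal was 35.6, 34.9, 34.7 and 40.5 in WT replicates 1 to 4 and 63.9, 87.1, 62.2 and 72.1 in LRP1 eKO replicates 1 to 4. All LRP1 eKO libraries lay above all WT libraries, with replicate 2 the highest. Mean signal rose from 36.4 ± 2.74 (SD, n = 4) to 71.3 ± 11.4 (SD, n = 4), a log2 fold change of 0.94 ± 0.101 (SE, adjusted p = 9.1e-05). Ddit3 lies on chromosome 10 (127290774 to 127296288), 241873 bases before Lrp1, and overlaps the exons of its neighbour Mars on the opposite strand by 68 bases; whether strand was used in counting is not given in the sources used here.

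Trib3, a pseudokinase induced by ATF4 and CHOP that restrains them in turn, was at 7.06, 7.73, 8.78 and 9.24 in WT replicates 1 to 4 and at 13.1, 12.7, 12.6 and 12.1 in LRP1 eKO replicates 1 to 4. The groups were well apart, and the LRP1 eKO libraries spread less than the WT libraries. The log2 fold change was 0.57 ± 0.0764 (SE, adjusted p = 3.7e-04). Chac1, an enzyme that degrades glutathione, was at 16.3, 18.0, 16.1 and 16.2 in WT and at 23.2, 20.6, 22.4 and 20.8 in LRP1 eKO replicates. It rose with no overlap by a log2 fold change of 0.37 ± 0.0571 (SE, adjusted p = 8.9e-04). Eif4ebp1, which encodes a repressor of cap-dependent translation, was at 90.1, 91.1, 93.6 and 96.6 in WT and at 130.1, 125, 113 and 118 in LRP1 eKO replicates. All 4 LRP1 eKO libraries again lay above the WT libraries, with a log2 fold change of 0.38 ± 0.051 (SE, adjusted p = 3.6e-04).

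Ddit4, whose product REDD1 inhibits mTORC1 and which is another target of ATF4, moved the other way. Its signal was 49.1, 49.4, 51.2 and 48.5 in WT replicates 1 to 4 and 37.0, 28.8, 36.6 and 33.2 in LRP1 eKO replicates 1 to 4. Every LRP1 eKO library lay below every WT library. The log2 fold change was -0.54 ± 0.0735 (SE, adjusted p = 4.1e-04), from a mean of 49.6 ± 1.17 to 33.9 ± 3.78 (SD over 4 libraries). Sesn2, another inhibitor of mTORC1 signalling, was at 16.0 to 18.0 in WT and 18.0 to 20.0 in LRP1 eKO libraries and was not called (log2 fold change 0.12, adjusted p = 0.10).

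**Figure D3:**
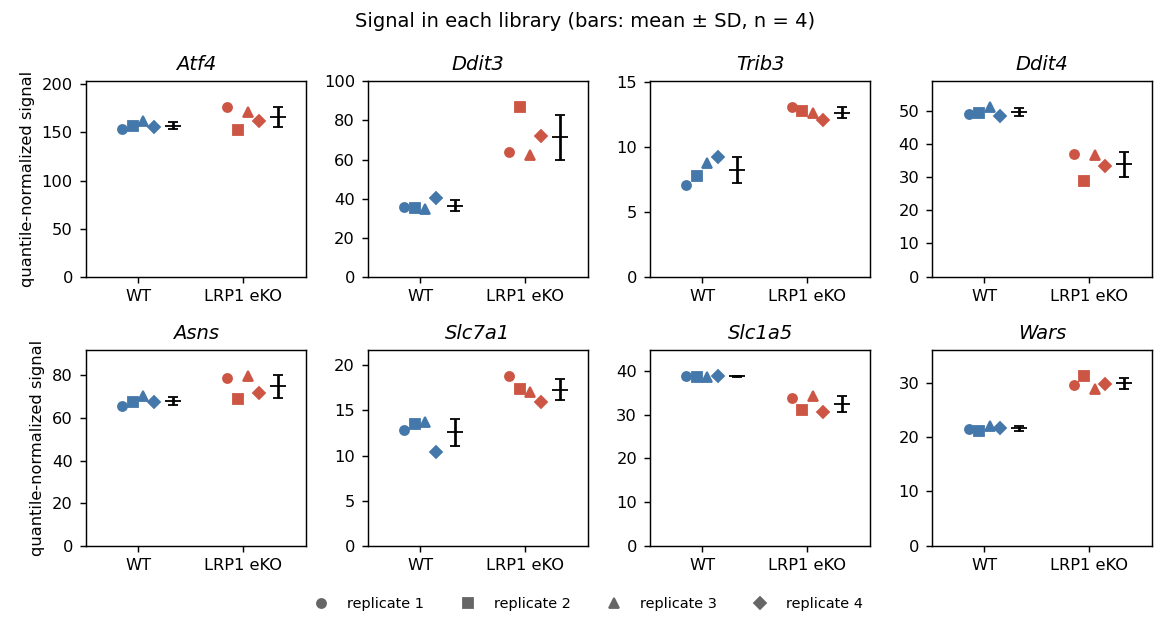
Quantile-normalized signal of 8 genes in each library, with WT in blue and LRP1 eKO in red, the replicate given by the symbol, and bars for the mean ± SD (n = 4) on axes that start at 0. Ddit3, Trib3, Slc7a1 and Wars lie higher and Ddit4 and Slc1a5 lower in all 4 LRP1 eKO libraries, while Atf4 and Asns overlap between the groups.

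Of the 7 enzymes of amino acid synthesis, 2 (28.6%) were called higher and none lower, against 19.0% and 22.2% of all genes tested. Their median log2 fold change was 0.08. Asns, the asparagine synthetase and a classical ATF4 target, was at 65.6, 67.7, 70.3 and 67.7 in WT replicates 1 to 4 and at 78.8, 69.0, 79.9 and 71.5 in LRP1 eKO replicates 1 to 4. LRP1 eKO replicates 1, 3 and 4 lay above the WT range and replicate 2 within it. Its log2 fold change was 0.14 ± 0.0548 (SE, adjusted p = 0.070) and was not called. Without LRP1 eKO replicate 2 it was 0.17 with an adjusted p of 0.028.

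Aldh18a1, which makes the precursor of proline, was at 22.7, 24.3, 22.7 and 21.3 in WT and at 31.2, 25.2, 30.7 and 28.9 in LRP1 eKO replicates. It rose with no overlap, with replicate 2 again the lowest of the LRP1 eKO libraries (log2 fold change 0.33 ± 0.0711 SE, adjusted p = 0.0049). Mthfd2, an enzyme of mitochondrial folate metabolism, was at 22.0, 22.5, 23.3 and 21.2 in WT and at 29.3, 23.0, 28.5 and 26.4 in LRP1 eKO replicates. It was called higher (log2 fold change 0.25 ± 0.0729 SE, adjusted p = 0.021), although replicate 2 lay inside the WT range, and it lost the call without LRP1 eKO replicate 1 (adjusted p = 0.058) or replicate 3 (adjusted p = 0.060). The 3 enzymes of serine synthesis from glycolysis were not called, with log2 fold changes of 0.02 for Phgdh, 0.08 for Psat1 and -0.09 for Psph (adjusted p = 0.70, 0.30 and 0.25). Pycr1, the last enzyme of proline synthesis, was likewise not called (log2 fold change -0.0088, adjusted p = 0.93). Of the Phgdh transcript, 61.3% of all stretches of 50 bases also occur in other genes, so its value is uncertain; for Psph the share was 20.8%.

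The 6 amino acid transporters analysed were split, with 2 called higher and 2 lower (33.3% each), against 19.0% and 22.2% of all genes tested. Their median log2 fold change was -0.026. Slc7a1, the carrier of arginine and lysine, was at 12.8, 13.4, 13.7 and 10.4 in WT replicates 1 to 4 and at 18.9, 17.4, 17.0 and 16.0 in LRP1 eKO replicates 1 to 4. The groups did not overlap and WT replicate 4 was the lowest library (log2 fold change 0.44 ± 0.0859 SE, adjusted p = 0.0032). Slc1a4, a carrier of alanine, serine and cysteine, was at 6.80, 7.21, 6.89 and 6.63 in WT and at 9.31, 9.54, 8.81 and 8.57 in LRP1 eKO replicates. It rose by a log2 fold change of 0.35 ± 0.0536 (SE, adjusted p = 8.0e-04), again with no overlap.

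Both glutamine carriers among the transporters were lower. Slc1a5 was at 38.9, 38.6, 38.6 and 38.8 in WT and at 33.8, 31.1, 34.3 and 30.5 in LRP1 eKO replicates. The WT libraries were nearly identical and all LRP1 eKO libraries lay below them, with a log2 fold change of -0.25 ± 0.048 (SE, adjusted p = 0.0028). Slc38a2 was at 47.6, 46.2, 42.4 and 38.0 in WT and at 35.9, 34.4, 38.3 and 37.4 in LRP1 eKO replicates. Here WT replicate 4 lay within the LRP1 eKO range (log2 fold change -0.25 ± 0.071 SE, adjusted p = 0.020), and the call was lost without WT replicate 1 or without WT replicate 2 (adjusted p = 0.054 in both). Slc3a2, the heavy chain that carries several light chain transporters to the cell surface, was at 65.0 to 66.0 in WT and 65.2 to 78.4 in LRP1 eKO libraries and was not called (log2 fold change 0.14, adjusted p = 0.084). Slc7a3, a further arginine carrier, was not called either (log2 fold change -0.19, adjusted p = 0.16). Without LRP1 eKO replicate 2, Slc3a2 had a log2 fold change of 0.18 and an adjusted p of 0.018.

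The tRNA synthetases attach each amino acid to its tRNA. Of the 12 cytosolic synthetases in the set, 9 (75.0%) were called higher and none lower, against 19.0% and 22.2% of all genes tested. Their median log2 fold change was 0.24. The 9 called genes showed no overlap between the groups, as did 42.6% of all genes tested. The mean log2(signal + 1) of the 12 was 5.61 to 5.69 for WT and 5.83 to 5.87 for LRP1 eKO libraries, so the groups were apart and each was narrow. Wars, the tryptophanyl-tRNA synthetase, rose most of the 12 and had the smallest adjusted p of the 33. It was at 21.4, 21.2, 22.1 and 21.8 in WT replicates 1 to 4 and at 29.6, 31.4, 28.9 and 29.8 in LRP1 eKO replicates 1 to 4. Its group means were 21.6 ± 0.405 (WT) and 29.9 ± 1.03 (LRP1 eKO; SD over 4 libraries), which gave a log2 fold change of 0.45 ± 0.0428 (SE, adjusted p = 4.1e-05). Wars is known to be induced by interferon as well as by ATF4.

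Aars, for alanine, was at 43.3, 44.5, 44.4 and 43.4 in WT and at 54.0, 56.2, 54.4 and 53.5 in LRP1 eKO replicates. The 2 groups were each narrow, and the log2 fold change was 0.31 ± 0.0378 (SE, adjusted p = 2.2e-04). Aars shares 1326 exonic bases with Exosc6 on the same strand, so its value is uncertain to that extent. Iars, for isoleucine, was at 32.7, 31.9, 31.0 and 25.7 in WT and at 39.4, 34.9, 39.6 and 36.0 in LRP1 eKO replicates, with WT replicate 4 well below the other WT libraries (log2 fold change 0.30 ± 0.0775 SE, adjusted p = 0.012). Nars, for asparagine, was at 112, 114, 118 and 102 in WT and at 134, 134, 137 and 142 in LRP1 eKO replicates. All LRP1 eKO libraries lay above all WT libraries (log2 fold change 0.30 ± 0.0498 SE, adjusted p = 0.0014).

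Tars, for threonine, was at 37.4, 36.3, 37.8 and 33.3 in WT and at 43.7, 41.5, 45.4 and 45.0 in LRP1 eKO replicates (log2 fold change 0.27 ± 0.0528 SE, adjusted p = 0.0030). Cars, for cysteine, was at 39.6, 42.0, 40.4 and 41.4 in WT and at 48.8, 47.4, 48.9 and 51.4 in LRP1 eKO replicates (log2 fold change 0.26 ± 0.0421 SE, adjusted p = 0.0011). These 2 genes rose by similar amounts, each with a gap between the groups. Gars, for glycine, was at 127, 133, 133 and 128 in WT and at 154, 146, 154 and 149 in LRP1 eKO replicates (log2 fold change 0.21 ± 0.039 SE, adjusted p = 0.0023). Sars, for serine, was at 141, 140.2, 144 and 142 in WT and at 156, 171, 155 and 161 in LRP1 eKO replicates (log2 fold change 0.18 ± 0.042 SE, adjusted p = 0.0081). Eprs, for glutamate and proline, was at 49.3, 51.9, 51.7 and 44.9 in WT and at 56.1, 53.5, 58.4 and 54.6 in LRP1 eKO replicates (log2 fold change 0.17 ± 0.055 SE, adjusted p = 0.033). Of the 9 called synthetases Eprs had the smallest change, and it lost the call without WT replicate 1 or without LRP1 eKO replicate 1, 3 or 4, with an adjusted p of at most 0.093. In an exact 2-sided permutation test each of the 9 had p = 0.0286, the lower limit of this design. Every gene without overlap has this p, so the test adds nothing to the lack of overlap. Of all genes tested, 42.6% had no overlap.

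The other 3 of the 12 were not called. Lars, for leucine, was at 33.1 to 36.0 in WT and 35.3 to 36.0 in LRP1 eKO libraries (log2 fold change 0.04, adjusted p = 0.40). Yars, for tyrosine, was at 35.1 to 39.0 and 37.1 to 37.9 (log2 fold change 0.01, adjusted p = 0.83). Mars, for methionine, was at 33.2 to 39.6 and 31.6 to 35.5 (log2 fold change -0.09, adjusted p = 0.24). The 95% intervals of these differences were -0.05 to 0.14 for Lars, -0.09 to 0.11 for Yars and -0.23 to 0.04 for Mars.

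The remaining cytosolic synthetases and the scaffold of the multisynthetase complex, 11 genes that were not in the set, had a median log2 fold change of -0.037. Of them, 1 was called higher and 1 lower (9.09% each), below the 19.0% and 22.2% of all genes tested. Rars, for arginine, was higher (log2 fold change 0.18, adjusted p = 0.0058), the scaffold gene Aimp1 was lower (-0.16, adjusted p = 0.036), and Farsa, a subunit of the phenylalanine enzyme, was not called (-0.11, adjusted p = 0.10). The mean log2(signal + 1) of these 11 ran from 5.16 to 5.25 in WT and from 5.14 to 5.19 in LRP1 eKO libraries, so the groups overlapped. Of the 17 mitochondrial synthetases, which charge the tRNAs used inside mitochondria, none was called higher and 3 (17.6%) were lower, below the 22.2% of all genes tested, with a median log2 fold change of -0.13. Among them were Fars2 (log2 fold change -0.33, adjusted p = 0.0046) and Aars2 (-0.20, adjusted p = 0.039). The differences between these lists were not tested, and the lists were chosen with earlier results of these data known.

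**Figure D4:**
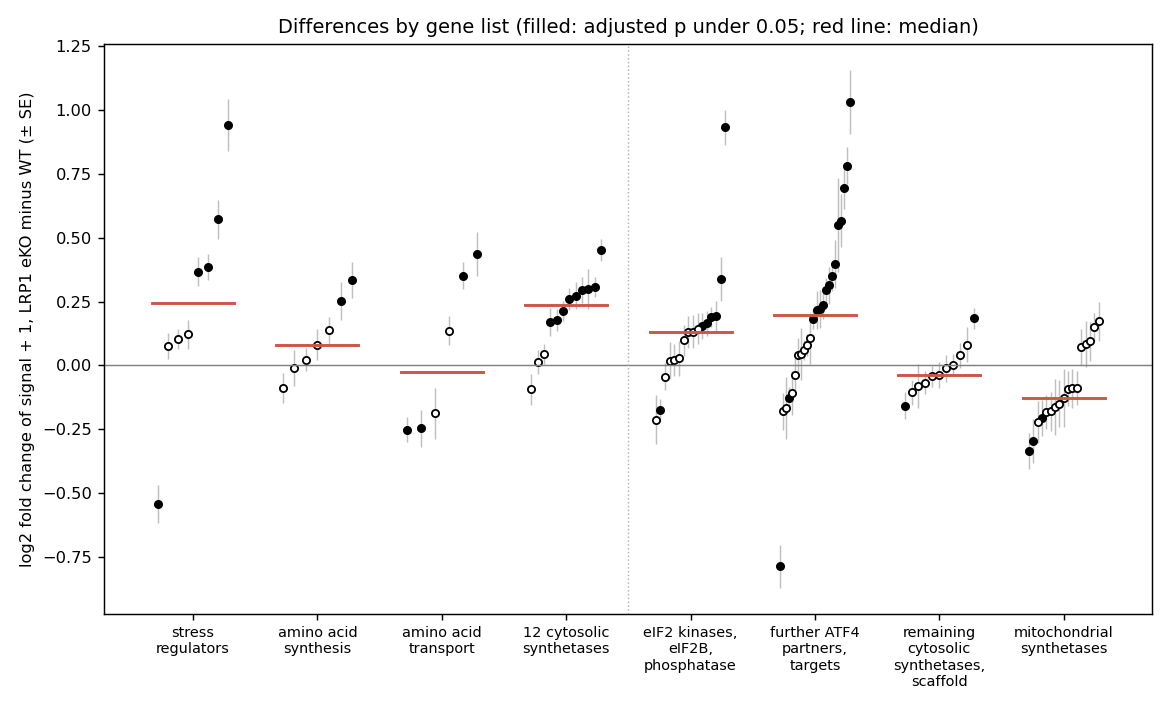
Log2 fold change of signal + 1, LRP1 eKO minus WT (bars, SE), of each tested gene in the 4 groups of the set, left of the dotted line, and in 4 further lists, right of it, with filled points for an adjusted p under 0.05 and a red line at the list's median. The medians of the stress regulators and of the 12 cytosolic synthetases lie at 0.24, those of the remaining cytosolic and the mitochondrial synthetases at -0.037 and -0.13.

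Upstream of ATF4, 16 genes were examined, namely those of the eIF2 kinases, eIF2, its exchange factor eIF2B, its phosphatases, and Gcn1l1 and Impact. Of these, 6 (37.5%) were called higher and 1 (6.25%) lower, against 19.0% and 22.2% of all genes tested. Their median log2 fold change was 0.13. Eif2ak2, the gene of the double-stranded RNA-activated eIF2 kinase PKR and itself known as induced by interferon, was at 12.2, 12.1, 12.2 and 9.93 in WT and at 22.2, 23.7, 23.3 and 22.9 in LRP1 eKO replicates. Mean signal rose from 11.6 ± 1.13 to 23.0 ± 0.617 (SD over 4 libraries), and the log2 fold change was 0.93 ± 0.0676 (SE, adjusted p = 7.7e-06). The genes of the other 3 eIF2 kinases were not called, with log2 fold changes of -0.04 for Eif2ak1, 0.14 for Eif2ak3 and 0.10 for Eif2ak4. Eif2s2, the beta subunit of eIF2, was higher (log2 fold change 0.19, adjusted p = 0.0036) and Eif2b1, a subunit of eIF2B, was lower (-0.17, adjusted p = 0.0082). Phosphorylation of eIF2 was not measured.

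Of the 24 tested genes among 25 further ATF4 partners and targets, 13 (54.2%) were called higher and 2 (8.33%) lower. Over all genes tested the shares were 19.0% and 22.2%. The median log2 fold change of the 24 was 0.20. Vegfa, an angiogenic growth factor, was at 44.2, 42.5, 39.8 and 35.3 in WT and at 68.6, 67.5, 76.6 and 67.6 in LRP1 eKO replicates (log2 fold change 0.78 ± 0.0723 SE, adjusted p = 3.5e-05). Vldlr, a lipoprotein receptor of the same family as LRP1, rose as well (log2 fold change 0.69 ± 0.0808 SE, adjusted p = 1.6e-04). Cebpb, a transcription factor that pairs with ATF4, was at 47.3, 54.6, 57.7 and 56.1 in WT and at 34.8, 27.9, 32.5 and 28.4 in LRP1 eKO replicates and fell without overlap (log2 fold change -0.79 ± 0.0838 SE, adjusted p = 9.0e-05).

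The LRP1 eKO libraries were not alike in these genes. Replicate 2, which was also lowest of its group for 11 of 12 macrophage markers, was the lowest LRP1 eKO library for 17 of the 33 genes and the highest for 5, namely Ddit3, Slc1a4, Aars, Sars and Wars. Without it, 19 of the 33 were higher and 3 lower, against 17.2% and 20.8% of all genes tested. WT replicate 4 was the lowest WT library for 13 of the 33. Without WT replicate 4, 18 of the 33 were higher and 3 lower, against 19.4% and 22.9% of all genes tested.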

How the data were processed

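Libraries were made from RNA of 4 WT and 4 LRP1 eKO samples. The deposited values were quantile-normalized signal of coding genes, made by the authors; the processing notes name TopHat2, Cufflinks and mm10, whereas the study's methods name other tools. The unit before normalization is not given in the sources used here. The 34 genes and all lists were chosen with earlier results of these data known.

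log2(signal + 1) was fitted with limma 3.58.1 in R 4.3.3 (mean-variance trend, genotype as the only term) over all 11391 genes that reached a signal of 1 in 4 or more of the 8 libraries, with Benjamini-Hochberg adjustment over all of them; fold changes of low genes are thereby understated. The code was tested on simulated data. Single genes were also tested by exact 2-sided permutation. Signal values were printed per library for every called gene, Atf4 and Asns; up to 3 genes of each other list were named, by lowest adjusted p (some items are not reported here), and Eif2ak1, Eif2ak3 and Eif2ak4 were added after their values were seen. Loci came from GENCODE M21 (GRCm38), promoters from RefSeq (GRCm38.p6); Wars, Eif4ebp1, Slc1a5, Nars, Slc7a3, Lars and Cars had no window. Alternatives changed the pseudocount (0.1 or 5), the filter (none, or a mean of at least 5), the trend, moderation, weights, centring, block, libraries and threshold. Read depth is unknown.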

Additional observations from a re-analysis of the deposited data

Results flagged for a closer look

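Within each group of 4, the gap between an extreme library and its nearest neighbour was divided by the group's range, and ratios above Dixon's 95% critical value were marked. Of 66 gene and group combinations 4 were marked, and chance marks about 1 in 20 (3.3 here). In WT libraries these were Ddit3, with replicate 4 high (ratio 0.839), and Chac1, with replicate 2 high (ratio 0.923). In LRP1 eKO libraries these were Phgdh, with replicate 4 low (ratio 0.927), and Lars, with replicate 3 high (ratio 0.917). The marked WT libraries of Ddit3 and Chac1 were the ones nearest to the LRP1 eKO values, and both genes kept their calls without them.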

How the results depend on the processing

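Over all alternatives 14 to 20 of the 33 genes were higher, with 14 at an adjusted p under 0.01 and 20 with array weights. Of all genes tested, 10.5% and 23.2% were higher in these 2 settings. Leaving out a single library gave 15 to 19 higher and 2 or 3 lower. The number past the adjusted p and a 2-fold change was 0 to 1 when a single library was left out; the 1 was Ddit3, at a log2 fold change of 1.00 without LRP1 eKO replicate 3. Of 660 combinations of gene and alternative, 631 kept direction and side of the threshold, and 23 of 33 genes kept both throughout. Direction turned for 3 genes that were not called: Phgdh and Yars without WT replicate 1 (ranges -0.0071 to 0.041 and -0.013 to 0.035 over single libraries left out), and Pycr1 with array weights (0.022), without WT replicate 4 and LRP1 eKO replicate 2 together (0.049), and within -0.056 to 0.056 when single libraries were left out; the cause was not tested. Asns and Slc3a2 were called with array weights and without LRP1 eKO replicate 2, and Atf5 with no filter, with array weights and without WT replicate 4. The eIF2 list had 3 instead of 6 higher calls without WT replicate 1 or without LRP1 eKO replicate 4, and the mitochondrial synthetases had 6 instead of 3 lower calls with array weights, 5 without WT replicate 3 and 1 without LRP1 eKO replicate 3. Deviations of same-numbered libraries correlated at -0.0856, -0.130, 0.178 and 0.0378, and those of differently numbered libraries at -0.264 to 0.212. No pairing by number was seen, but with 4 libraries per group a pairing could be missed. With the replicate block 17 genes were higher, 3 lower and 0 past the 2-fold change. Of all genes tested, 17.3% were then higher and 19.4% lower. Quantile normalization fixes the distribution of each library, so a shift of most genes in one direction would not be seen, and without read depth the precision of low signals is unknown.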

Other observations

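Several further genes of the ATF4 partner and target list, and Ppp1r15a of the eIF2 list, were looked at after their values were seen. Atf3, a stress-induced transcription factor, was at 3.68, 3.88, 4.37 and 3.64 in WT and at 10.5, 6.52, 10.0 and 9.39 in LRP1 eKO replicates (log2 fold change 1.03 ± 0.125 SE, adjusted p = 2.0e-04). It was the only gene of the ATF4 partner and target list past both the adjusted p and the 2-fold change, and LRP1 eKO replicate 2 was the lowest of its group. Cebpg, a partner of ATF4 in the same family as Cebpb, was at 9.18 to 10.3 in WT and at 12.3 to 13.8 in LRP1 eKO libraries (log2 fold change 0.35, adjusted p = 0.0012), whereas Cebpb was lower. From the eIF2 list, Ppp1r15a, whose product GADD34 directs dephosphorylation of eIF2, was at 11.2 to 14.9 and 15.6 to 17.4 (log2 fold change 0.34, adjusted p = 0.012). Bcat1, which starts the breakdown of branched-chain amino acids, was at 3.60 to 5.07 and 6.54 to 8.57 (log2 fold change 0.57, adjusted p = 0.0022), and Xpot, the exporter of tRNA from the nucleus, at 10.3 to 12.3 and 13.3 to 13.7 (log2 fold change 0.24, adjusted p = 0.0083). Of the secreted stress hormones, Gdf15 was at 1.18 to 1.81 and 1.62 to 4.22 (log2 fold change 0.55, adjusted p = 0.038), with overlapping groups, and Fgf21 was not called (log2 fold change -0.16, adjusted p = 0.30).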
